A study of Mus musculus with 20 samples.

Results

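The receptor tyrosine kinases of the ErbB family (Egfr, Erbb2, Erbb3 and Erbb4) and the neuregulin genes (Nrg1, Nrg2, Nrg3 and Nrg4) were followed across the hippocampus and amygdala of mice lacking a nuclear receptor corepressor in neurons. These 8 genes, of 23412 in each expression table, were picked by gene symbol. The family was chosen because Erbb4 was among the genes with the largest decrease in NCoR1-KO amygdala, so all values of that contrast, and Erbb4 wherever amygdala libraries enter, are given as a description with no test.

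Neuregulins are growth factors with an EGF-like domain, and most are made as membrane-bound precursors that proteases release. They bind ErbB3 or ErbB4, whereas the receptor encoded by Egfr binds EGF, TGF-alpha and related ligands. ErbB2 has no known ligand of its own and serves as a partner for the other receptors, and ErbB3 has a weak kinase and signals through such partners. In the forebrain Erbb4 is known for its expression in GABAergic interneurons, Erbb3 for the oligodendrocyte lineage and Egfr for progenitors and astrocytes.

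Polyadenylated RNA was sequenced from 20 libraries of tissue taken at postnatal day 21. Each tissue had 4 control libraries, 3 NCoR1-KO libraries (floxed NCoR1 with the pan-neuronal driver Snap25-IRES2-cre) and 3 SMRT-KO libraries (floxed SMRT with the same driver). The labels do not give the alleles of the control animals, so what they share with the knockouts is unknown. The driver is described as pan-neuronal, and the tissue also holds glia and vessels. Nothing states that libraries of a group came from separate animals, so a p-value here reflects the scatter among the libraries, part of which may be technical.

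Values are in TPM, a level scaled for transcript length and library total, and the depth of each library is unknown. Between 13787 and 14391 genes reached 1 TPM in the hippocampal libraries, and between 14153 and 14509 in the amygdala. Ncor1, the targeted gene, was at 32.1 to 39.0 TPM in NCoR1-KO amygdala against 71.3 to 126.5 TPM in its controls, and at 41.9 to 61.1 against 81.6 to 137.4 TPM in hippocampus. Snap25, the locus of the driver, was lower in every knockout library (1053 to 1699 TPM) than in every control library (1825 to 2329 TPM). Each difference between a knockout and control therefore comes with lower Snap25. Effects of the driver and of the lost corepressor cannot be told apart in these comparisons. Summed TPM of 9 striatal markers lay at 136.3 to 500.3 in hippocampal controls, with the top in control 2, and that of 6 thalamic markers reached 716.3 in hippocampal SMRT-KO 2. The choroid plexus list ranged from 32.5 to 11560 TPM across hippocampal libraries. In the amygdala the 5 markers of intercalated neurons summed to 119.5 to 177.5 TPM, against 39.9 to 83.6 TPM in hippocampus. In bulk tissue, fewer cells of a type and less RNA per cell cannot be told apart.

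The members differ widely in gene structure. In GENCODE M21 (GRCm38), Erbb4 covers 1076 kb at chr1:68032186-69108059 on the minus strand, Nrg1 1070 kb at chr8:31814551-32884029 and Nrg3 1104 kb at chr14:38368952-39473088. Erbb3 covers only 22.1 kb at chr10:128567523-128589652, and Erbb2 25.2 kb at chr11:98412470-98437716. Egfr lies at chr11:16752203-16918158 and Nrg4 at chr9:55220222-55326844, and Nrg2 covers 179.7 kb. The longest coding transcript of Erbb4 has 12.04 kb, of which 7.86 kb is 3′ UTR, a length above 99.1% of the coding genes in the tables. That of Egfr has 10.2 kb, that of Erbb3 6.02 kb and that of Nrg1 5.42 kb. Erbb2 (5.01 kb), Nrg3 (4.01 kb), Nrg2 (3.06 kb) and Nrg4 (1.93 kb) are shorter. Egfr, Erbb2, Nrg2, Nrg3 and Nrg4 overlap antisense or protein-coding genes on the other strand (Mien1 at Erbb2, Fbxo22 at Nrg4), and no source used here says whether counting took strand into account.

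Erbb4 and Egfr, the 2 receptors with transcripts over 10 kb, are shown by the 250 bases before their RefSeq start (GRCm38.p6), since both were lower in NCoR1-KO amygdala with no overlap between groups. NCoR1 and SMRT act on nuclear receptors, so both strands were searched for the half-site AGGTCA, to be printed in capitals. No match is in either window, which says only that these letters are absent there. Of 32851 windows of the same length, 14% hold the half-site.
Erbb4, chr1:69108060-69108309, minus strand: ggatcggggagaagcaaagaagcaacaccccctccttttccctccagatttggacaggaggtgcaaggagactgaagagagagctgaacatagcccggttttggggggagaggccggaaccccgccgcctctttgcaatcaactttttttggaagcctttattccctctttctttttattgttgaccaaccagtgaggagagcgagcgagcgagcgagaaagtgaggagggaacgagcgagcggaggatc
Egfr, chr11:16751953-16752202, plus strand: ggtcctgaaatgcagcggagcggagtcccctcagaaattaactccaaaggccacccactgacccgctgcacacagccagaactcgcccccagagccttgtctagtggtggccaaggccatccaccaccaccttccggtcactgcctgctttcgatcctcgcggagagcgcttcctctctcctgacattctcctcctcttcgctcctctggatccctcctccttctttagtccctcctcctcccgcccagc
The windows of Erbb4 and Egfr hold 54.0% and 60.8% G and C, against a median of 52.4%. RefSeq windows matched 5 of the 8 members, and Nrg4 holds 2 copies of the half-site.

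Among the receptors, Erbb4 varied most. The 4 hippocampal controls held 14.5, 9.41, 2.43 and 5.74 TPM of it. The NCoR1-KO libraries held 1.62, 2.63 and 2.85 TPM, and the SMRT-KO libraries 9.90, 2.41 and 1.44 TPM. All 3 NCoR1-KO libraries were thus at or below the low end of the controls, with control 3 among them. SMRT-KO 2 and 3 lay below the lowest control, and SMRT-KO 1 lay within the controls' range. In amygdala the controls were at 15.6, 15.7, 26.2 and 7.09 TPM. NCoR1-KO libraries held 2.78, 3.73 and 3.62 TPM, below each control, and SMRT-KO libraries 28.6, 25.9 and 30.6 TPM, with 2 of 3 above the highest control. The group means ran from 28.3 ± 2.35 (SD, n = 3) in SMRT-KO amygdala through 16.2 ± 7.83 (n = 4) in control amygdala, 8.02 ± 5.17 (n = 4) in control hippocampus, 4.58 ± 4.63 (n = 3) in SMRT-KO hippocampus and 3.38 ± 0.52 (n = 3) in NCoR1-KO amygdala to 2.37 ± 0.66 (n = 3) in NCoR1-KO hippocampus. Libraries of each pair of neighbours in that order overlapped, and the tissues come from separate tables, each scaled per library.

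**Figure D1:**
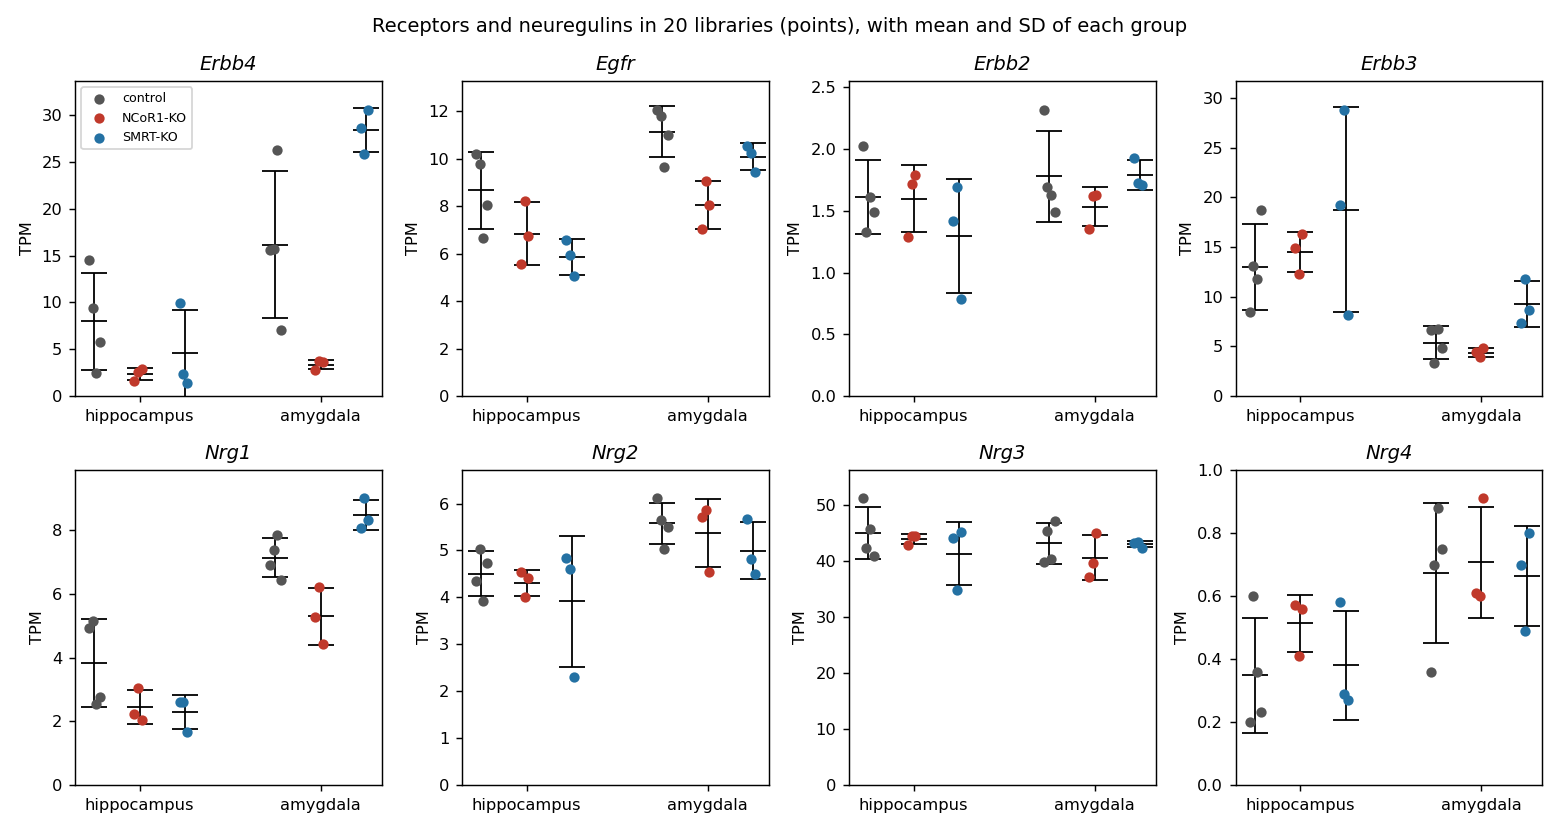
TPM (y axis, from 0, own scale per gene) of the 8 members in hippocampus and amygdala; points are libraries coloured by genotype, and bars give the mean and SD of each group (the lower bar of Erbb4 in SMRT-KO hippocampus is cut at 0). Erbb4 lies at 2.78 to 3.73 TPM in NCoR1-KO amygdala and at 25.9 to 30.6 TPM in SMRT-KO amygdala, while Nrg3 lies between 34.8 and 51.1 TPM everywhere.

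Egfr was at 10.2, 9.78, 6.67 and 8.04 TPM in control hippocampus, 5.55, 8.21 and 6.76 TPM in NCoR1-KO and 6.59, 5.95 and 5.08 TPM in SMRT-KO. Every SMRT-KO library lay below every control, and the NCoR1-KO libraries overlapped them. In amygdala the values were 12.1, 11.8, 9.67 and 11.01 TPM in controls, 7.05, 9.05 and 8.05 TPM in NCoR1-KO and 10.6, 10.3 and 9.46 TPM in SMRT-KO. There the NCoR1-KO libraries were the low ones. The 8 astrocyte markers summed to 2307 to 2380 TPM in NCoR1-KO amygdala, 2706 to 3221 TPM in controls and 2795 to 3121 TPM in SMRT-KO. All 8 were below control in NCoR1-KO amygdala, 3 of them without overlap, beside 8.43% of all genes. In hippocampus these sums overlapped between all genotypes. The part of astrocyte RNA in the Egfr values was not tested. Erbb2, the shared coreceptor, stayed between 0.79 and 2.32 TPM in all libraries.

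Erbb3, the receptor of the oligodendrocyte lineage, was at 8.43, 13.1, 11.8 and 18.8 TPM in control hippocampus, 14.9, 12.3 and 16.3 TPM in NCoR1-KO and 19.3, 28.8 and 8.21 TPM in SMRT-KO. SMRT-KO held both the highest and the lowest library. In amygdala the controls had 6.63, 3.35, 6.78 and 4.81 TPM, NCoR1-KO 4.42, 3.92 and 4.81 TPM and SMRT-KO 7.36, 11.8 and 8.63 TPM. The SMRT-KO libraries lay above the other 7.

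Among the ligands, Nrg3, a neuregulin that binds ErbB4, made up 74.5% to 91.4% of the summed neuregulin TPM of a library. Its group means lay between 40.5 ± 4.01 (SD, n = 3, NCoR1-KO amygdala) and 44.9 ± 4.58 TPM (n = 4, control hippocampus). Nrg1, the best-studied neuregulin, was at 4.93, 5.14, 2.53 and 2.77 TPM in control hippocampus, 2.24, 3.05 and 2.03 TPM in NCoR1-KO and 2.62, 2.60 and 1.67 TPM in SMRT-KO. The 3 groups overlapped. In amygdala Nrg1 was at 6.91, 7.37, 7.85 and 6.43 TPM in controls, 5.26, 6.22 and 4.42 TPM in NCoR1-KO and 8.08, 9 and 8.33 TPM in SMRT-KO. These 3 groups did not overlap, with NCoR1-KO lowest and SMRT-KO highest. Nrg2 ranged from 2.30 to 6.11 TPM. Nrg4 stayed at 0.20 to 0.91 TPM, below the filter for testing, so 7 of the 8 members were tested.

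In hippocampus, no member passed the test between NCoR1-KO and control. A gene was tested when it reached 1 TPM in at least 3 libraries of the tissue, with limma on log2(TPM + 1) and Benjamini-Hochberg adjustment over all tested genes. None of the 7 members passed an adjusted p of 0.05 and none had an unadjusted p under 0.05. Over all 14501 genes the shares were 0% and 4.54%. None of the 7 had groups that did not overlap (8.09% of all genes in either direction). Erbb4 showed the widest difference, -1.23 ± 0.57 (SE) on the log2 scale (95% interval -2.50 to 0.03, adjusted p = 0.998 by limma). Egfr differed by -0.30 ± 0.16 and Nrg1 by -0.46 ± 0.23 (limma adjusted p = 0.998 for both), and 6 of the 7 members were below control, with a median of -0.05 against 8.2e-05 over all genes.

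SMRT-KO hippocampus, which was compared with the same controls, gave 0 members past the adjusted threshold by limma (0% of all genes). An unadjusted p under 0.05 was reached by 2 members, Egfr and Nrg1, and by 5.61% of all genes. Egfr, 1 of the 7, had groups that did not overlap and was lower (2.71% of all genes), with a difference of -0.48 ± 0.16 (limma adjusted p = 0.779). Nrg1 differed by -0.52 ± 0.23 (adjusted p = 0.779 by limma) and Erbb4 by -0.80 ± 0.57 with an interval of -2.07 to 0.47. The Erbb4 difference ranged from -1.44 without SMRT-KO 1 to -0.36 without SMRT-KO 3, and was -0.47 without control 1. Between the knockouts, none of the 7 members passed in hippocampus by limma (0% of all genes), none had an unadjusted p under 0.05 (6.59%) and none had groups that did not overlap (11.4%). The interval for Erbb4, NCoR1-KO minus SMRT-KO, ran from -1.79 to 0.92.

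In NCoR1-KO amygdala, the contrast the family was chosen on, the mean of Erbb4 was 20.9% of control, a difference of -1.85 on the log2 scale. Egfr (-0.43) and Nrg1 (-0.38) were also below each control, so groups did not overlap for 3 of the 7 members, beside 8.43% of all genes in that direction, from which nothing is read here. The other 4 overlapped their controls, with -0.21 for Erbb3, -0.13 for Erbb2, -0.09 for Nrg3 and -0.05 for Nrg2. In a fit with the level of long transcripts as a covariate, described with the plot by library, the difference of Erbb4 was -0.72. That level did not overlap between these groups, so the fit cannot separate it from genotype.

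SMRT-KO amygdala, compared with the same controls, gave 0 of the 6 members other than Erbb4 past the adjusted threshold by limma (0.11% of all 14606 genes). Of these 6, 1 (Erbb3) had an unadjusted p under 0.05, beside 22% of all genes. Erbb3 was higher in each SMRT-KO library than in any control, by 0.70 ± 0.21 (limma adjusted p = 0.0959). Nrg1 was also higher without overlap, by 0.22 ± 0.11 (limma adjusted p = 0.26), and 5.85% of all genes did not overlap in this direction. The interval for Egfr was -0.35 to 0.09. Erbb4, described only, was higher by 0.90 on the log2 scale, with overlap, and by 0.58 without control 4.

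**Figure D2:**
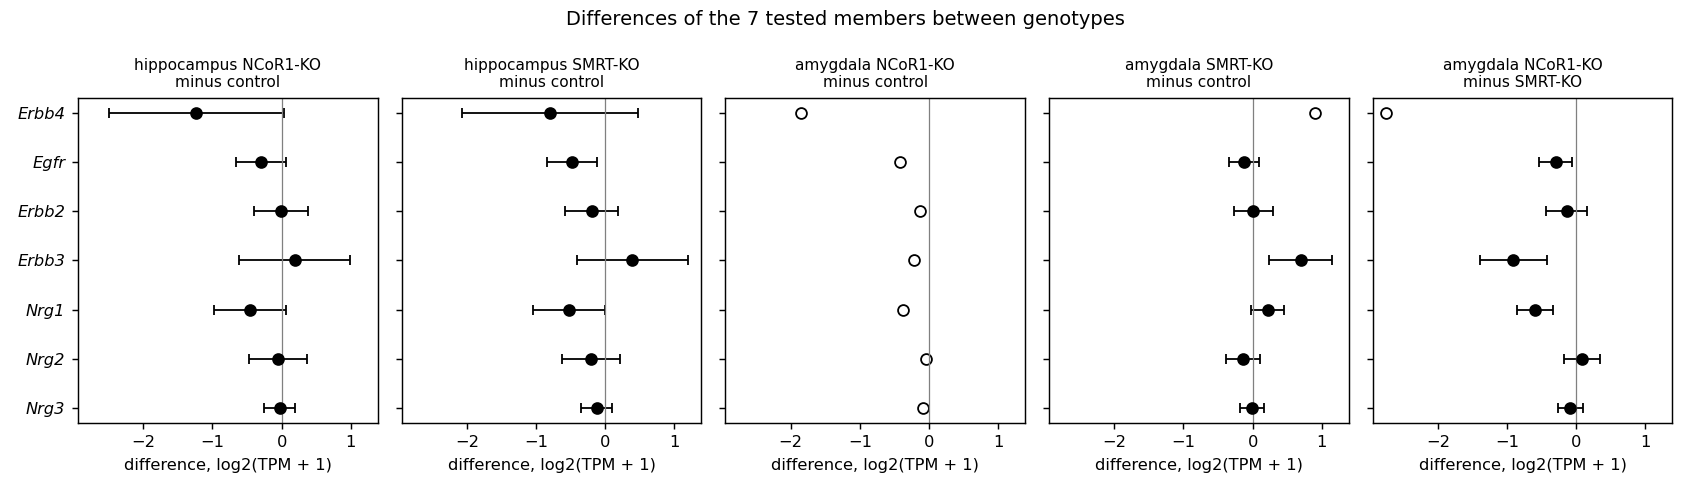
Differences of the 7 tested members on the log2(TPM + 1) scale (x axis) in 5 comparisons; filled points carry 95% intervals from limma, and open points, given without an interval, are values that share libraries with the contrast the family was chosen on (all members there, and Erbb4 in the other amygdala comparisons). Erbb4 ranges from -2.75 to 0.90, and Nrg3 from -0.12 to -0.004.

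In the direct comparison of the knockouts in amygdala, 2 members passed. Erbb3 was lower in NCoR1-KO than in SMRT-KO by 0.91 ± 0.22 on the log2 scale (limma adjusted p = 0.0291), with means of 4.38 ± 0.45 and 9.26 ± 2.28 TPM (SD, n = 3 each). Nrg1 was lower by 0.60 ± 0.12 (limma adjusted p = 0.0148), with means of 5.30 ± 0.90 and 8.47 ± 0.48 TPM. Across the amygdala libraries the Pearson r with Erbb4 was 0.912 for Nrg1 and 0.706 for Erbb3. Neither call is therefore independent of how the family was chosen. These 2 of the 6 members other than Erbb4 stand beside 1679 of all 14606 genes called (11.5%), 6.46% in this direction. Erbb4, described only, was lower by 2.75, an 8.39-fold difference in mean TPM. Of the 6 members other than Erbb4, Egfr, Erbb2, Erbb3 and Nrg1 had groups that did not overlap and were lower (19.6% of all genes). Among these, Egfr (-0.30 ± 0.11, limma adjusted p = 0.09) and Erbb2 (-0.14 ± 0.14, adjusted p = 0.52 by limma) did not pass. Erbb4 was lower without overlap too, but is not counted because the family was chosen on its low level in these NCoR1-KO libraries. The calls of Erbb3 and Nrg1 were both lost with a long-transcript, an oligodendrocyte or a striatal score as covariate (limma adjusted p = 0.339, 0.343 and 0.285 for Erbb3, and 0.306, 0.158 and 0.143 for Nrg1). In these fits, in the same order, Erbb3 differed by -0.93, -0.34 and -0.63 and Nrg1 by -0.51, -0.57 and -0.59. Of all genes, 10, 33 and 33 passed. Each score was lower in every NCoR1-KO than in every SMRT-KO library. The long-transcript score was -0.32 to -0.13 against 0.06 to 0.17 and the oligodendrocyte score -0.6 to -0.13 against 0.42 to 1.06. The striatal score was -0.69 to 0.2 against 0.4 to 1.14. These fits therefore cannot separate a score from genotype, and nothing is read from the lost calls. The replicate block ended the call of Erbb3 at the same difference, -0.91 (limma adjusted p = 0.0689). Leaving out NCoR1-KO 1, 2 or 3 or SMRT-KO 2 or 3 ended the call of Erbb3 (limma adjusted p from 0.0541 to 0.109), and leaving out SMRT-KO 2 or 3 that of Nrg1 (0.0596 and 0.0594 by limma).

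Between the control tissues, Erbb3 was higher in hippocampus by 1.12 ± 0.29 (limma adjusted p = 0.00656), 1 member higher among 13.2% of all 14210 genes tested in both tissues. Nrg1 was lower in hippocampus by 0.79 ± 0.17 (limma adjusted p = 0.00167), as was Egfr by 0.34 ± 0.13 (adjusted p = 0.0499 by limma), 2 members among 19.3% of all genes. The Egfr call held in only 13 of 34 alternatives, with limma adjusted p from 0.00425 to 0.174, the latter without hippocampal control 3. Erbb4, described only, differed by -1.01, and by -0.61 without hippocampal control 3. Tissue and any difference in how the separate tables were made cannot be told apart.

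The difference in knockout effect between tissues was tested by an interaction term, and no member passed. For NCoR1-KO, 0 of the 6 members tested passed by limma or had an unadjusted p under 0.05 (0% and 3.67% of all genes), and Erbb4, described only, gave 0.62 for hippocampus minus amygdala. For SMRT-KO, 0 of the 6 passed by limma (0% of all genes). Of the 6, 1 (Nrg1, -0.74 ± 0.26, limma adjusted p = 0.434) had an unadjusted p under 0.05, beside 8.85% of all genes. Erbb4, described only, gave -1.70.

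The level of Erbb4 moved across libraries with that of genes with very long transcripts. A score was made from the genes with a coding transcript over 10 kb, as the median of their log2 deviations from the tissue mean, without the members (347 genes in hippocampus, 349 in amygdala). It lay at -0.32 to -0.13 in NCoR1-KO amygdala, at 0 to 0.16 in control amygdala and at 0.06 to 0.17 in SMRT-KO amygdala. The hippocampal controls ranged from -0.05 to 0.25, and control 3, the control with the lowest score, was also the one with the lowest Erbb4, at 2.43 TPM. Hippocampal NCoR1-KO 1 had a score of -0.2 with 1.62 TPM. NCoR1-KO 2 and 3 lay within the control range, at 0.03 and 0.01, yet held only 2.63 and 2.85 TPM. Hippocampal SMRT-KO 1, at 9.90 TPM the high library of its group, had a score of 0.16 against -0.16 and -0.34 in SMRT-KO 2 and 3. The part of transcript length in the Erbb4 values was not tested.

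**Figure D3:**
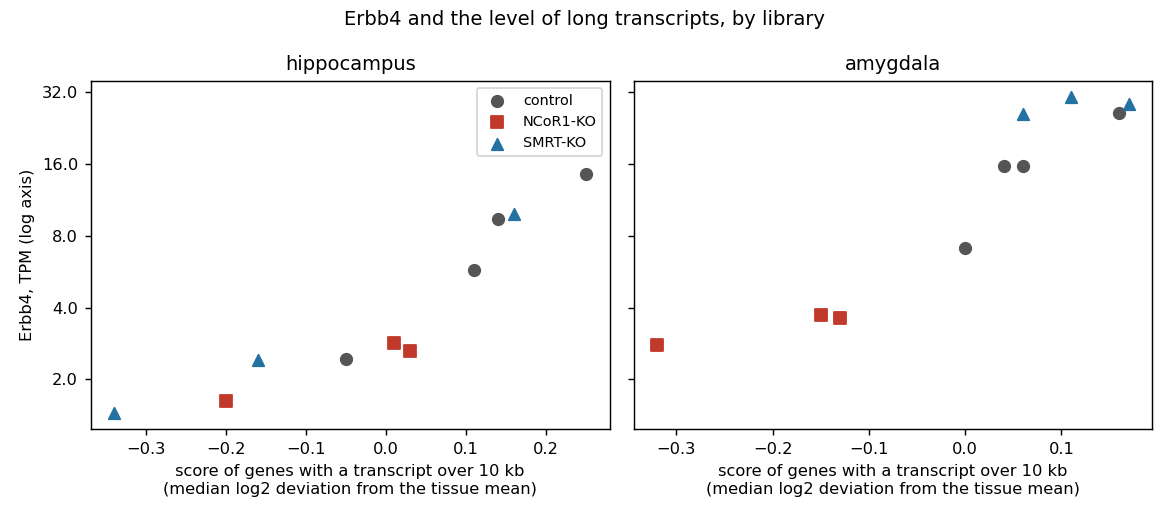
Erbb4 (y axis, TPM, log axis) against the score of genes with a transcript over 10 kb (x axis, log2 units) in each library of hippocampus (left) and amygdala (right). In both tissues libraries with a low score are low in Erbb4, and NCoR1-KO amygdala sits at -0.32 to -0.13 with 2.78 to 3.73 TPM.

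Grouped by transcript length, all genes showed the same gradient in NCoR1-KO amygdala. Of genes with transcripts over 10 kb, 48.4% were lower than control without overlap, against 2.90% of those up to 2 kb. Their median difference was -0.28 on the log2 scale, with Erbb4 at -1.85 and Egfr at -0.43. In NCoR1-KO hippocampus the class median was -0.17, in SMRT-KO hippocampus -0.23 and in SMRT-KO amygdala 0.04. Nrg1 lay below the median of its class (4 to 8 kb) in 3 of these 4 comparisons and above it in SMRT-KO amygdala.

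**Figure D4:**
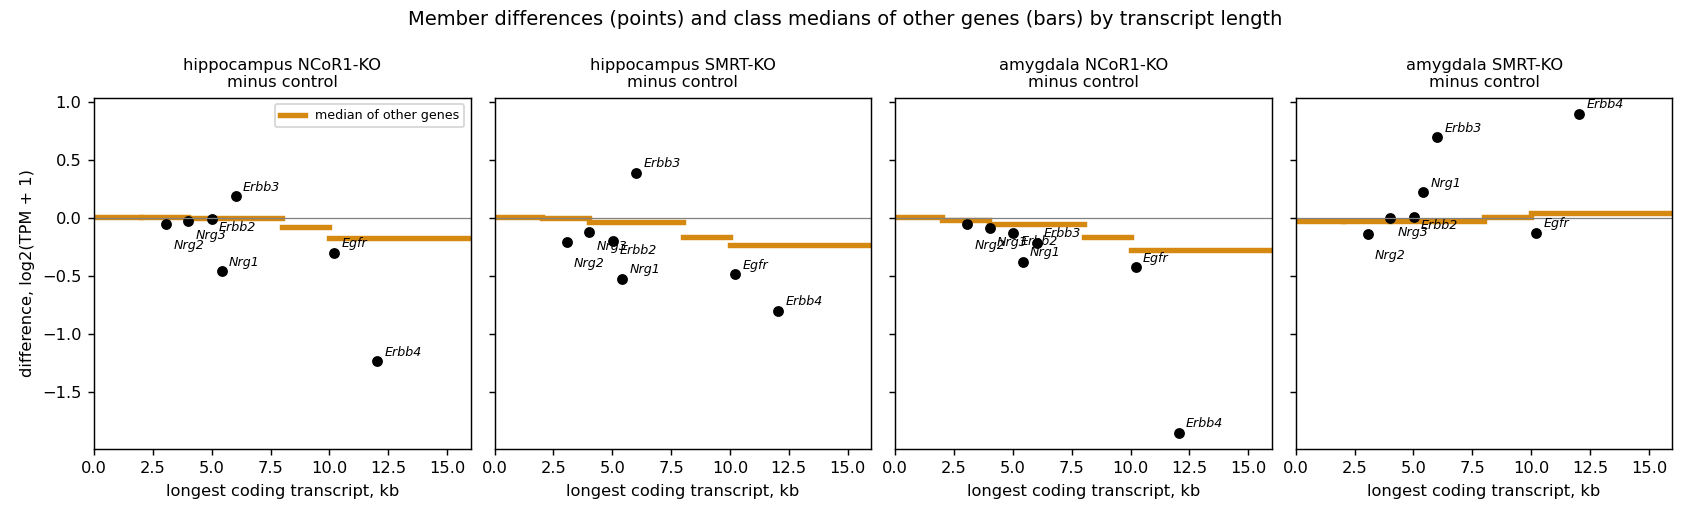
Difference from control on the log2(TPM + 1) scale (y axis) against the longest coding transcript (x axis, kb) for the 7 tested members (points), with the median of the other genes in each length class (bars), in 4 comparisons. The class over 10 kb has medians of -0.17, -0.23, -0.28 and 0.04, with Erbb4 at -1.23, -0.80, -1.85 and 0.90 in the same panels.

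The 5 genes most like Erbb4, by Pearson r over the 20 libraries of the deviation from the tissue mean among 14210 genes, were Lnpep, an aminopeptidase (0.991), Xkr4 (0.989), Ptar1 (0.974), Grin2a, an NMDA receptor subunit (0.973), and Kcnma1, a potassium channel (0.969). The libraries share tissues and genotypes, so these values describe likeness in this series. Of the 5, 4 have a transcript over 10 kb, and Xkr4 has 3.63 kb. Lnpep ran from 3.38 to 4.12 TPM in NCoR1-KO amygdala, 8.49 to 34.2 TPM in its controls and 38.4 to 43.2 TPM in SMRT-KO. Of the members, Nrg1 had an r of 0.814 with Erbb4, Egfr 0.673, Erbb2 0.428, Erbb3 0.349, Nrg3 0.258 and Nrg2 0.197. As deviations from the group mean, the values in this order were 0.673, 0.583, 0.408, 0.12, 0.077 and 0.397. Within hippocampus and amygdala alone, Erbb3 had -0.069 and 0.706 and Nrg2 0.528 and -0.238, while the other tested members were positive in both. The 15 markers of inhibitory neurons, cells known to express Erbb4, had sums that overlapped between genotypes in amygdala. These sums were 2741 to 2866 TPM (controls), 2727 to 3021 TPM (NCoR1-KO) and 2833 to 2966 TPM (SMRT-KO). Of the 15 single markers, 1 (Pvalb) was higher without overlap in SMRT-KO amygdala (36.1 to 100.8 TPM) than in both other groups. It held 14.6 to 29.9 TPM (controls) and 15.7 to 23.5 TPM (NCoR1-KO). Over all genes, 5.85% were higher without overlap in SMRT-KO than in control, and 19.6% higher than in NCoR1-KO, so nothing is read from this marker. Of the 15, 8 lay above control and 7 below in SMRT-KO amygdala, against 9 and 6 in NCoR1-KO. Between the knockouts there, 1 of the 15 passed by limma, lower in NCoR1-KO, beside 6.46% of all genes. In hippocampus 13 of the 15 lay below control in NCoR1-KO (median -0.29 on the log2 scale) and in SMRT-KO (median -0.30), and none passed by limma. Their hippocampal sums overlapped, at 2092 to 2580 TPM (controls), 1915 to 2270 TPM (NCoR1-KO) and 1768 to 2524 TPM (SMRT-KO). Between the control tissues 13 of the 15 were below amygdala in hippocampus. There 7 passed lower and 2 higher by limma, beside 19.3% and 13.2% of all genes. The part of inhibitory neurons in the Erbb4 values was not tested.

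The Erbb3 values are set beside myelin genes, the products of mature oligodendrocytes such as Mbp and Mog. Summed over 11 such genes, control amygdala held 2729 to 9697 TPM, NCoR1-KO amygdala 4002 to 5486 TPM and SMRT-KO amygdala 8198 to 12369 TPM. The hippocampal sums were 10924 to 20216 TPM (controls), 13570 to 17030 TPM (NCoR1-KO) and 10144 to 29419 TPM (SMRT-KO). Erbb3 was highest in the SMRT-KO hippocampal library with the highest sum, and lowest in the one with the lowest sum. The highest library, SMRT-KO 2, also held the most thalamic marker RNA (716.3 TPM). In amygdala all 11 were lower in NCoR1-KO than in SMRT-KO without overlap, and 2 passed by limma (median -1.11). The 9 striatal markers summed to 1140 to 1788 TPM in SMRT-KO amygdala, 647.3 to 1113 TPM in NCoR1-KO and 435.9 to 1302 TPM in controls, which overlapped both. By limma 0 of the 9 passed in any genotype comparison there. All 9 were lower in NCoR1-KO than in SMRT-KO, 7 of them without overlap (median -0.94). The 6 microglial markers summed to 343.4 to 366.4 TPM in NCoR1-KO, 461.4 to 498.8 TPM in SMRT-KO and 379.8 to 493.2 TPM in control amygdala. All 6 were lower in NCoR1-KO than in SMRT-KO without overlap, and 5 passed by limma (median -0.40). Over all genes 19.6% were lower without overlap in this comparison and 6.46% passed lower. With the oligodendrocyte score as covariate, the difference of Erbb3 between the knockouts in amygdala was -0.34. That score did not overlap between the knockouts there, so the fit cannot separate it from genotype. The part of striatal or microglial RNA in the Erbb3 and Nrg1 results was not tested further.

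**Figure D5:**
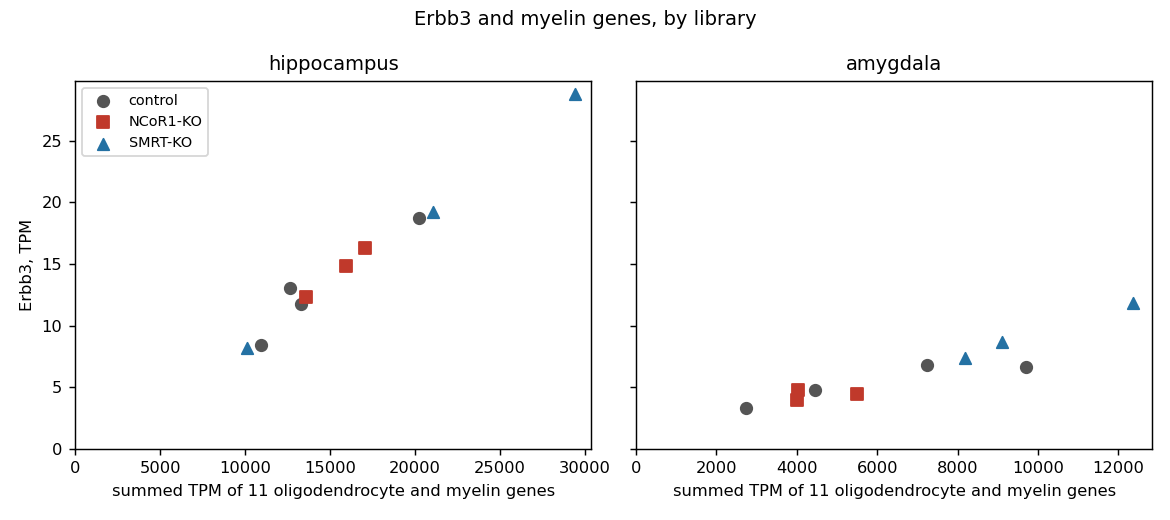
Erbb3 (y axis, TPM) against the summed TPM of 11 oligodendrocyte and myelin genes (x axis) in each library, hippocampus left and amygdala right. Erbb3 reaches 28.8 TPM in hippocampal SMRT-KO 2, the library with the most myelin RNA and also the most thalamic marker RNA. Amygdala control 1 holds 9697 TPM of myelin RNA with 6.63 TPM of Erbb3. In the amygdala the 3 SMRT-KO libraries lie above the NCoR1-KO ones on both axes.

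The other genes of the pathway were taken from 5 lists. Of the 7 other EGF-family ligands, only Tgfa and Hbegf were expressed enough to be tested, and of the 13 processing proteases and cofactors, 13 regulators, 11 scaffolds and nuclear partners and 28 adaptors and kinases, all were tested. In hippocampus, and between SMRT-KO and control amygdala, no gene of any list passed by limma. The medians of these lists lay between -0.09 and 0.10 on the log2 scale in the hippocampal comparisons with control.

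Between NCoR1-KO and SMRT-KO amygdala 15 of the 67 tested pathway genes passed, 2 higher and 13 lower. Over all 14606 genes 1679 passed (11.5%), with 6.46% passing lower. The 15 came from 1 of 2 tested ligands, 1 of 13 processing genes, 4 of 13 regulators, 2 of 11 scaffolds and 7 of 28 adaptors and kinases. Furin, a proprotein convertase, was higher in NCoR1-KO (0.29 ± 0.08, limma adjusted p = 0.0447), as was the adaptor Shc2 (0.32 ± 0.07, limma adjusted p = 0.0222). Tgfa, an Egfr ligand, was lower (-0.57 ± 0.16), with 22.3 to 24.7 TPM in NCoR1-KO and 32.5 to 41.4 TPM in SMRT-KO (limma adjusted p = 0.0442). The ubiquitin ligase Cbl, which takes receptors down (-0.99 ± 0.20), the ErbB2-binding protein Erbb2ip (-0.65 ± 0.13), and the ligases Itch (-0.29 ± 0.06) and Wwp1 (-0.44 ± 0.08) were lower too. The syntrophin Sntb2 had the widest difference of the scaffolds (-1.13 ± 0.14, limma adjusted p = 0.00289). Akt2 (-0.56 ± 0.13), Braf (-0.33 ± 0.06) and Pik3ca (-0.29 ± 0.06) stood for the kinases, and Nras, Shc3 and the scaffold Dlg2 were also lower, between -0.48 and -0.20. The number of these genes called was 8 with the replicate block. With the long-transcript, oligodendrocyte and striatal score as covariate it was 0, 1 and 1. No score overlapped between the knockouts, so those fits cannot separate it from genotype. Without NCoR1-KO 1, NCoR1-KO 2, SMRT-KO 2 and SMRT-KO 3 the number was 5, 3, 4 and 1. List medians lay between -0.34 (the 2 ligands) and -0.01, beside -0.0002 over all genes.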

How the data were processed

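The deposited TPM tables, 1 per tissue, were made by the authors. STAR 2.5.3a, RSEM 1.3.3, fastp 0.21.0, bcl2fastq and build mm10 are named, with no role or order, per the submitters' processing notes. RNA came from a lipid tissue kit and a stranded mRNA library kit, per the labels' protocols. TPM keeps no depth, so no counting error is given.

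The measure tested was log2(TPM + 1). It was fitted with limma 3.58.1 (R 4.3.3) with a variance trend, over all 10 libraries of a tissue, or over all 20 for comparisons of tissues. Genes reaching 1 TPM in at least 3 libraries were tested. Differences on this scale understate changes of low genes. Transcript lengths came from GENCODE M21. The fit was tested on simulated data. Erbb4 was not tested where amygdala libraries enter. Members and lists were chosen with earlier results of these data known. Members were named in every comparison, pathway genes where they passed, with 1 not reported here, and the 5 genes most like Erbb4 by r. Alternatives were another pseudocount, other filters, scalings and spreads, a replicate block and each library left out. Fits with a score as covariate or a length trend removed were added after the data were seen.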

Additional observations from a re-analysis of the deposited data

How the results depend on the processing

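Of 1659 member values under alternatives, 74 changed sign, 6 of them by more than 1 SD. In NCoR1-KO against SMRT-KO amygdala, 1 member passed with the replicate block (Nrg1, while Erbb3 had -0.91 and an adjusted p of 0.0689 by limma). With the long-transcript, oligodendrocyte or striatal score as covariate 0 passed. In that order Nrg1 differed by -0.51, -0.57 and -0.59 and Erbb3 by -0.93, -0.34 and -0.63, against -0.60 and -0.91 without a score. From 0 to 2 members passed with 1 library left out. Same-numbered libraries correlated from -0.49 to 0.499 within hippocampus and from -0.251 to 0.344 within amygdala, so the numbers were not taken as pairs. Between tissues, 10 same-numbered libraries of a genotype correlated from 0.001 to 0.48, 7 of them over 0.1. With those as a replicate block, chosen after the data were seen, Erbb3, Egfr and Nrg1 passed between control tissues, as without it, and 0 members passed in the interactions. With the long-transcript score as covariate, chosen after the data were seen, Erbb4 turned to 0.27 in SMRT-KO hippocampus and came to -0.72 in NCoR1-KO amygdala, -1.43 between the knockouts there, -1.22 between control tissues and -0.44 for the SMRT-KO difference between tissues. In amygdala the long-transcript score of NCoR1-KO did not overlap that of either other group, so comparisons with NCoR1-KO there cannot separate it from genotype. Nrg3 came to 0.11 (oligodendrocyte score) and Egfr to 0.076 (striatal score) in SMRT-KO amygdala. With 1 library left out, Nrg2 in SMRT-KO hippocampus ranged from -0.35 to 0.059, and the SMRT-KO difference between tissues from -0.68 to 0.16 for Erbb3 and from -0.22 to 0.19 for Nrg2, each highest without hippocampal SMRT-KO 3. The cause was not tested.

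Counts over all genes moved as well. NCoR1-KO against SMRT-KO amygdala called 1679 genes, 854 with the replicate block and 10 with the long-transcript score, which did not overlap between these groups. NCoR1-KO against control amygdala called 60 genes, 0 to 126 with 1 library left out and 0 to 69 otherwise. SMRT-KO against control called 16 genes, 0 to 697 with 1 library left out and 0 to 607 otherwise. The hippocampal comparisons called 0 genes and at most 5 under any alternative run. Depth is unknown, so the precision of Nrg4 and Erbb2, the lowest members, cannot be given.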
